A study of Arabidopsis thaliana with 9 samples.

Results

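NLR proteins are the intracellular immune receptors of plants, and 84 genes whose deposited description contains NBS-LRR or NB-ARC were taken as NLR genes, out of 18861 genes listed in any table of the series. An NLR protein has a nucleotide-binding domain (NB-ARC) and leucine-rich repeats, and it is held inactive until a pathogen effector or the damage it does is sensed. Most carry either a TIR domain or a coiled coil (CC) at the N-terminus, and those classes signal through different partners; helper NLRs with an RPW8-type N-terminus act downstream of the sensors. By their descriptions 53 of the genes were TIR, 19 were CC and 12 gave no class. An NB-ARC domain was annotated for 81 of the 84. AT4G23510, AT5G45000 and AT5G45220 were annotated with a TIR domain but with neither NB-ARC nor leucine-rich repeats, so they are NLR genes by description only. NLR genes with names of their own, such as ZAR1 or SNC1, mostly have descriptions without those words and are not among the 84.

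Polyadenylated RNA of Arabidopsis thaliana accession Col-0 was sequenced in 3 groups of 3 libraries, called biological replicates in the labels. Leaf was the rosette leaf of wild-type plants after 1 week on medium and 2 weeks on soil under 16 h of light per day. Wild-type callus and callus labelled emf2 (allele emf2-1, per the file headers) were both raised from cotyledons on medium containing the hormones 2,4-D (an auxin, 2.2 µM) and kinetin (a cytokinin, 0.46 µM), were kept in the dark after the first week and were taken at 6 to 8 weeks. Callus is a mass of dividing cells, so tissue, light, hormones and age all differ between leaf and callus and cannot be told apart. EMF2 is a subunit of Polycomb Repressive Complex 2, which silences developmental genes through methylation of histone H3. Levels are given in RPKM as deposited, a unit meant to correct reads for the length of the gene and the size of the library. The deposited values depart from equal library totals, which would need factors of 0.637 for leaf, 1.24 for wild-type callus and 1.27 for callus labelled emf2. A group's table leaves out genes that average 1 RPKM or less in it.

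The values stand for 40.6 to 54.0 M recovered reads per library, and a listed NLR gene had a median of 679 to 1789 reads, with a lowest value of 30. EMF2 itself (AT5G51230) had leaf values of 5.5, 6.07 and 29.6 RPKM, wild-type callus values of 7.43, 6.78 and 7.55, and 13.0, 15.5 and 16.3 in the callus labelled emf2. Its transcript was thus not lower in the mutant libraries (log2 fold change 0.95 ± 0.52 SE against wild-type callus, limma adjusted p = 0.66), and the genotype rests on the labels. Leaf libraries differed in defence and heat genes: PR1, a salicylic acid marker, had 12.7, 72.7 and 1144 RPKM, and the heat-shock gene HSP101 had 7.88, 144 and 5.94. Leaf markers were far lower in callus than in leaf but not absent. RCA, the Rubisco activase gene, had 3.83 to 14.2 RPKM in wild-type callus and 4.73 to 6.35 in callus labelled emf2, and LHCB1.1, a light-harvesting protein gene, had 24.2, 0.628 and 6.76 RPKM in wild-type callus and 0.169, 1.13 and 2.22 in callus labelled emf2. The callus markers WOX5, WOX11, PLT3 and LBD16 were listed for both calli and not for leaf. The other callus marker, LBD29, was listed for callus labelled emf2 only, a difference from wild-type callus that was not significant (limma).

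The upstream sequence of 6 NLR genes is shown because the results turn on them. AT5G66900 and AT5G66910 are neighbours with opposite fold changes, AT5G58120 and AT5G41740 were among the largest falls, and AT1G58400 and AT1G58410 are neighbours listed only for callus. Each is the sequence before the annotated start on the gene's own strand, 5′ to 3′, from TAIR10.1, whose nuclear chromosomes are those of TAIR10. Windows have 250 bases, except the 171 bases that separate AT5G66900 from its neighbour. Capitals mark TTGAC or its reverse complement GTCAA, the core of the W-box that WRKY transcription factors bind.
AT5G66900 (chr5:26717959-26718129, minus strand): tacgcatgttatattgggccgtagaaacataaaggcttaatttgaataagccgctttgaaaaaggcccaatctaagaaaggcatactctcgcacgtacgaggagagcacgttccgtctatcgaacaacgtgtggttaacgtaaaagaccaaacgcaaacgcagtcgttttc
AT5G66910 (chr5:26721378-26721627, minus strand): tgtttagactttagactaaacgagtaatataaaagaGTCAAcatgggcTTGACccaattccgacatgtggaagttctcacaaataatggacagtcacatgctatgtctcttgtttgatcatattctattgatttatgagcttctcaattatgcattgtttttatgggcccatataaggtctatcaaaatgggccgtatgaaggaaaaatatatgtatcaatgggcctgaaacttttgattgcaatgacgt
AT5G58120 (chr5:23517006-23517255, plus strand): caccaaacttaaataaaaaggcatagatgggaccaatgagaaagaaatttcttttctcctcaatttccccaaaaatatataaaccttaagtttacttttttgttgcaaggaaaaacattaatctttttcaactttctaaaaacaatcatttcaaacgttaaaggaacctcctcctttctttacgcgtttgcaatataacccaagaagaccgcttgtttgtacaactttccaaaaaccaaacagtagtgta
AT5G41740 (chr5:16688376-16688625, plus strand): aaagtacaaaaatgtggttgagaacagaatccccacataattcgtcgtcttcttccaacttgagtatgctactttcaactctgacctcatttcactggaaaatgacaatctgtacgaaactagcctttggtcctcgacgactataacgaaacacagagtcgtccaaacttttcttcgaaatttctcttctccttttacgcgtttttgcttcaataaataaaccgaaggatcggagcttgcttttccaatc
AT1G58400 (chr1:21699696-21699945, minus strand): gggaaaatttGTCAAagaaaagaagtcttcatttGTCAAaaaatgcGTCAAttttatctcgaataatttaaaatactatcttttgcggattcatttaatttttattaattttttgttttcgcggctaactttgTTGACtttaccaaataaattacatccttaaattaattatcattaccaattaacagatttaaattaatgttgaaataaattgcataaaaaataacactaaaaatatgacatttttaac
AT1G58410 (chr1:21704983-21705232, minus strand): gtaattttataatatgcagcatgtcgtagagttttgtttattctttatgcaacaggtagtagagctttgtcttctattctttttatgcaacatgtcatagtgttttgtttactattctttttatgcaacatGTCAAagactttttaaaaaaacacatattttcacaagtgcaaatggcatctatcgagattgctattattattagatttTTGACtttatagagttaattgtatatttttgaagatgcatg
Over windows of 250 bases, searched on both strands, 47 of the 84 NLR genes (56.0%) held the core, against 44.9% of all 27443 annotated protein-coding genes and 45.1% of those in a table. The 4 matches before AT1G58400 compare with a mean of 0.952 per NLR gene and 0.633 per gene overall. By direction in wild-type callus against leaf, 29 of the 57 genes that fell held it (50.9%), those passing as listed for leaf only included. It was held by 10 of the 13 that rose or were listed for callus only (76.9%). The 6 windows shown are thus not typical of all that fell. The direction of a gene listed for 1 group was fixed by that listing. A match is a run of letters, not a bound site.

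In leaf 75 of the 84 genes were listed, against 60 in wild-type callus and 61 in callus labelled emf2. Of the 84, 50 were in all 3 tables, 22 only in that of leaf, and 9 in those of both calli but not leaf; 2 were listed for leaf and callus labelled emf2, and 1 for leaf and wild-type callus. The leaf-only share was 26.2% of NLR genes, against 9.0% of all 18861 genes, and the callus-only share was 10.7% against 9.06%. The sets of unlisted genes were fixed by the threshold of the tables, so these shares are a description.

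In the deposited scaling, NLR genes were highest in leaf. The group means had a median of 12.8 RPKM for leaf, 4.92 for wild-type callus and 3.99 for callus labelled emf2, and the listed NLR genes summed to 2118 to 2505 RPKM in the leaf libraries and to 314 to 377 in the 6 callus libraries. In leaf 42 of the 75 (56.0%) lay above the median of all listed genes, 10.5 RPKM. In wild-type callus 13 of 60 (21.7%) and in callus labelled emf2 13 of 61 (21.3%) did, against medians of 8.43 and 8.38. AT5G41750, a TIR gene, was the highest in leaf (189, 216 and 260.2 RPKM), and AT5G40910, also TIR, was the highest in both calli (23.6, 25.3 and 18.0 in wild type, 25.2, 26.2 and 23.0 in callus labelled emf2).

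**Figure D1:**
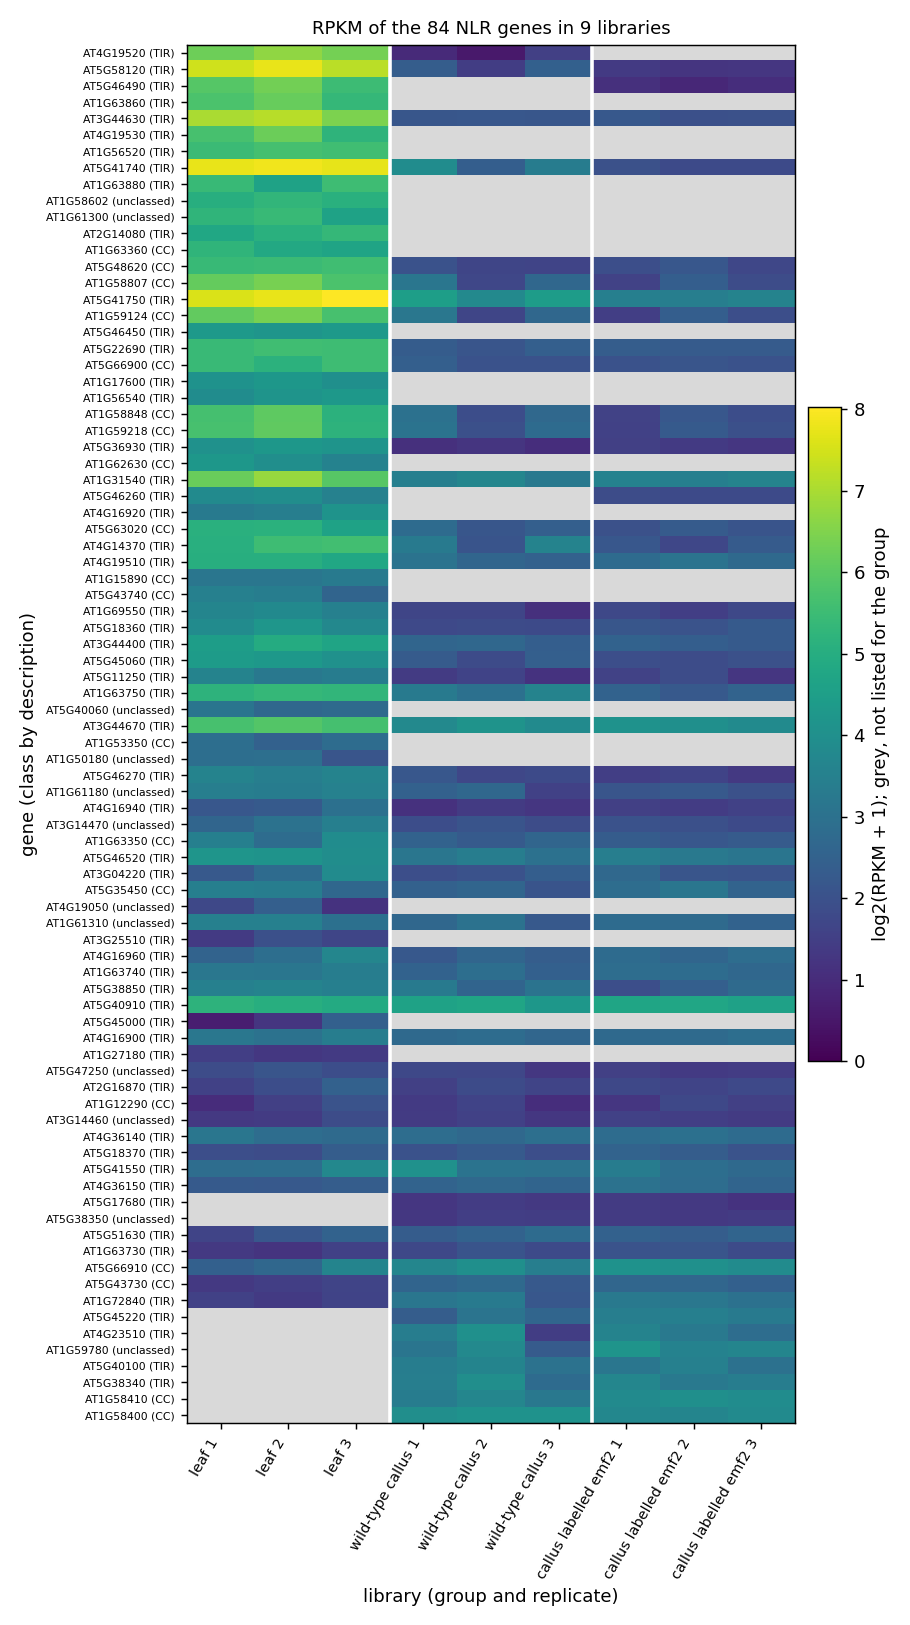
Heat map of log2(RPKM + 1) for the 84 NLR genes (rows, class in brackets) in the 9 libraries (columns), ordered by the fitted log2 fold change of wild-type callus over leaf. Grey cells are groups for which the gene is not listed. The bright rows of the 3 leaf columns turn dark in the 6 callus columns, and the 9 rows listed for callus only lie at or near the bottom.

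The first comparison asks how NLR expression in wild-type callus differs from that in leaf. Among the 51 genes listed in both, 35 were lower in callus, 4 were higher and 12 did not pass (limma on log2(RPKM + 1), adjusted p under 0.05, two-sided). Over all 14780 genes listed in both, 31.8% were lower and 33.6% were higher. The median log2 fold change was −1.20 for the NLR genes and 0.06 for all genes. The libraries did not overlap for 40 of the 51, 36 lower and 4 higher, against 33.1% and 35.8% of all genes. Of the 39 that passed, 28 were lower and 2 were higher by at least 2-fold. Over all 14780 genes, 3287 passed as lower and 2207 as higher by at least 2-fold. In bulk tissue, fewer expressing cells and less RNA per cell cannot be told apart. The scaling of the deposited values departs from library totals. With equal totals of recovered reads the median over all genes rose to 0.86 and that of the NLR genes to −0.51. Of the 51 NLR genes 25 were then lower and 10 higher, against 2497 and 9219 of all 14780 genes. Relative to the median of all genes, the NLR median was −1.27 as deposited and −1.37 with equal totals, and 44 of the 51 lay below it under both.

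AT5G58120, a TIR gene, fell from 175, 215 and 147 RPKM in leaf to 4.13, 1.72 and 4.50 in wild-type callus (log2 fold change −5.39 ± 0.27 SE, limma adjusted p = 1.3e-06). All 3 leaf libraries lay far above all 3 callus libraries. AT4G19520, also TIR, fell from 75.5, 102 and 80.7 RPKM to 0.933, 0.466 and 1.89, the largest fall of the 51 (−5.42 ± 0.27, limma adjusted p = 1.0e-05). In callus it lay at the threshold of listing.

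AT5G41740 and AT5G41750, adjacent TIR genes, had the highest leaf means of the 84 genes. AT5G41740 had 214, 233 and 209 RPKM in leaf and 13.9, 4.31 and 9.43 in wild-type callus (−4.55 ± 0.32, limma adjusted p = 7.9e-06). AT5G41750 fell less, to 21.8, 12.8 and 20.5 RPKM (−3.54 ± 0.21, limma adjusted p = 3.1e-06). No callus value of either gene came near its leaf values. AT3G44630 (TIR) fell from 127, 142 and 86.9 RPKM to 3.42, 3.49 and 3.43, with almost no spread among the callus libraries (−4.72 ± 0.18, limma adjusted p = 5.0e-07).

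CC genes fell as well. AT5G48620 had 41.9, 43.4 and 46.4 RPKM in leaf and 3.09, 2.20 and 2.14 in wild-type callus (−3.70 ± 0.16, limma adjusted p = 6.7e-07), with no overlap. AT1G58807 and AT1G59124 had nearly the same values, 68.7, 81.7 and 52.6 RPKM in leaf for the first and 68.1, 82.0 and 51 for the second. These genes are identical over their 4506 bases, and AT1G58848 and AT1G59218 are 99.98% identical. Reads cannot be assigned within either pair, so each pair is a single measurement of uncertain origin. The counts given hold both genes of a pair unless stated. With 1 gene of each, a count chosen after seeing the data, 33 of 49 NLR genes fell and 4 rose in wild-type callus against leaf.

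By class, 23 of 34 TIR genes listed in both groups fell and 2 rose, with a median log2 fold change of −1.73. Of 12 CC genes 9 fell and 2 rose, with a median of −2.77, and of 5 unclassed genes 3 fell and none rose, with a median of −0.68. By their descriptions the CC genes include AT5G66900, which fell, and AT5G66910, which rose, both annotated with an RPW8 domain. With 1 gene of each near-identical pair, a count chosen after seeing the data, 7 of 10 CC genes fell with a median of −1.71, close to that of TIR. The classes were not tested against each other.

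Only 4 of the 51 rose. AT1G72840 (TIR) had 1.96, 1.58 and 2.04 RPKM in leaf and 7.96, 8.63 and 3.52 in wild-type callus (log2 fold change 1.36 ± 0.27, limma adjusted p = 0.0024). The groups do not overlap, and the third callus library is the lowest of its group. AT5G43730 (RSG2 in the annotation, CC) had 1.5, 1.82 and 2.11 RPKM in leaf and 4.98, 5.76 and 3.76 in callus (1.05 ± 0.16, limma adjusted p = 0.00057). The annotated gene AT5G43725 covers 4045 of its 4256 bases, and with a kit that does not mark strand their reads cannot be told apart. AT1G63730 (TIR) rose by 0.52 ± 0.15 (limma adjusted p = 0.016), from 1.52, 1.32 and 1.94 RPKM to 2.35, 3.26 and 2.51, a call lost without wild-type callus replicate 2 or leaf replicate 2 (limma adjusted p = 0.0501 and 0.055) and with quantile normalization (0.059). The remaining gene that rose is AT5G66910, described below with its neighbour.

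**Figure D2:**
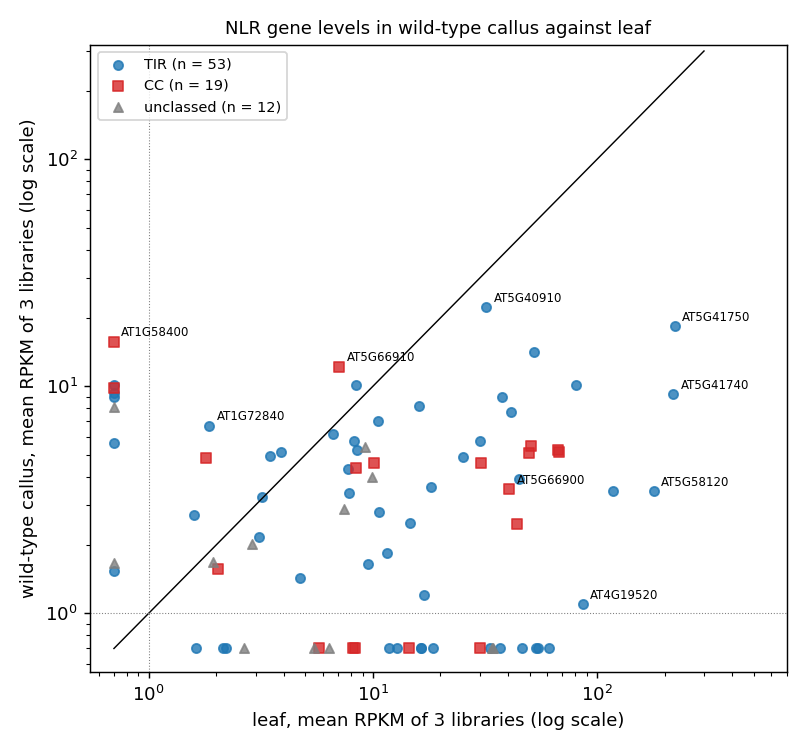
Mean RPKM of 3 libraries in leaf (x axis) and in wild-type callus (y axis), both on log scales, for the 84 NLR genes by class. The line marks equal levels, and points on the outer side of a dotted line are genes not listed for that group, drawn at a fixed place below 1 RPKM. Most points lie below the line, and AT1G58400, AT1G72840 and AT5G66910 lie above it.

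Genes absent from a table have a mean of at most 1 RPKM there, and the values of the listed group were tested against that bound. Listing already required a mean above 1 RPKM, so the direction was fixed in advance. No value of the unlisted group entered the test. Of 24 NLR genes listed for leaf and not for wild-type callus, 22 lay above it (limma with the bound as a fixed value), against 84.3% of the 1914 such genes. The highest were AT5G46490 with 59.8, 78.1 and 44.6 RPKM, AT1G63860 with 53.4, 70.5 and 39.4, AT4G19530 with 50.9, 73.5 and 36.5, and AT1G56520 with 43.0, 49.9 and 46.1, all TIR. All 4 lay far above the bound in every leaf library. AT1G58602, without a class, had 32.1, 38.1 and 33.0 RPKM in leaf, and AT1G50180 had 6.47, 6.57 and 3.38. AT1G17600 (TIR) had 16.2, 18.2 and 14.9, but 3193 of its 5179 bases overlap AT1G17610. The 2 that did not pass were AT4G19050, with 2.35, 4.36 and 1.25 RPKM, and AT5G45000, with 0.603, 1.36 and 4.50.

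All 9 genes listed for wild-type callus and not for leaf lay above the bound, against 69.4% of 1923 such genes. AT1G58400 (CC) had 14.8, 16.2 and 16.2 RPKM in wild-type callus and 12.1, 11.6 and 13.3 in callus labelled emf2. AT1G58410 (CC) had 9.32, 11.8 and 8.33 and then 13.5, 14.9 and 14.1. AT5G40100 (TIR) had 9.57, 11.4 and 7.19 and then 7.91, 10.3 and 6.98, and AT5G38340 (TIR) had 9.71, 14.6 and 6.07 and then 11.9, 8.40 and 9.51. These levels place them above the callus median of listed NLR genes, in tissue that had no listed leaf value for any of them. AT1G59780 had 7.62, 12.8 and 3.93 RPKM in wild-type callus, AT5G45220 had 4.17, 7.53 and 5.19, and AT4G23510 had the widest range, 9.66, 15.5 and 1.73. AT5G17680 and AT5G38350 stayed between 1.41 and 1.78 RPKM.

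Genes with annotated roles moved unevenly. AT5G66900 and AT5G66910 are the only members annotated with an RPW8 domain, the N-terminal type of helper NLRs. AT5G66900 had 42.4, 34.4 and 45.0 RPKM in leaf and 4.45, 3.04 and 3.09 in wild-type callus (−3.21 ± 0.16, limma adjusted p = 1.2e-06). AT5G66910, upstream of it on the same strand with 171 bases between them, had 4.50, 5.37 and 11.4 RPKM in leaf and 11.7, 15.0 and 9.88 in callus (0.78 ± 0.29, limma adjusted p = 0.043). The leaf and callus libraries of AT5G66900 are far apart, while the third leaf library of AT5G66910 lies among the callus values. Its rise passed without wild-type callus replicate 3 or leaf replicate 3. It passed in no other fit that left out 1 of the 9 libraries (limma adjusted p of 0.060 to 0.14). Nor did it pass with only the 6 compared libraries or with a replicate block (limma adjusted p = 0.077 and 0.065). In callus labelled emf2 it was 1.07 ± 0.29 against leaf (limma adjusted p = 0.012). VICTR (AT5G46520), a TIR gene named for a root growth response to a small molecule, had 17.3, 16.4 and 14.4 RPKM in leaf and 7.83, 9.62 and 7.05 in wild-type callus (−0.90 ± 0.14, limma adjusted p = 0.00076). With equal library totals its fold change was −0.02 and did not pass.

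NLR genes are often clustered, and 42 of the 84 lay within 10000 bases of another. Of 14 pairs that are next to each other on a chromosome, 12 had both genes pass between leaf and wild-type callus, the tests against the bound included. For a gene listed for 1 group only, the direction was fixed by that listing, so the tally that follows is a description. In 9 of the 12 both moved the same way and in 3 they moved apart, where 57 of the 70 members that passed fell. Some of the 9 depended on the scaling. With equal library totals AT1G61310 went from −0.68 to 0.16 on the log2 scale. AT1G63350, next to AT1G63360, went from −0.93 to −0.10. Neither AT1G61310 nor AT1G63350 then passed. AT1G63740, whose sign also turned (below), is in 1 of the 9 pairs too, with AT1G63750. The pairs with opposite calls were AT5G66900 with AT5G66910, AT1G63730 with AT1G63740, and AT5G43730 with AT5G43740. The rises in these pairs have the limits given above. Calls of AT5G66910 and AT1G63730 were lost in some fits, and AT5G43730 overlaps another gene over most of its length. AT1G63740 fell by 0.61 on the log2 scale, from 8.01, 7.82 and 9.59 RPKM to 4.75, 6.53 and 4.49, but its sign turned with equal library totals (0.22). AT5G43740 had 10.3, 9.52 and 5.04 RPKM in leaf and was not listed for either callus. Among pairs that moved together, AT4G19510 fell less (32.1, 31.8 and 26.3 to 7.39, 5.16 and 4.67 RPKM) than AT4G19520, which lies tail-to-tail with it.

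**Figure D3:**
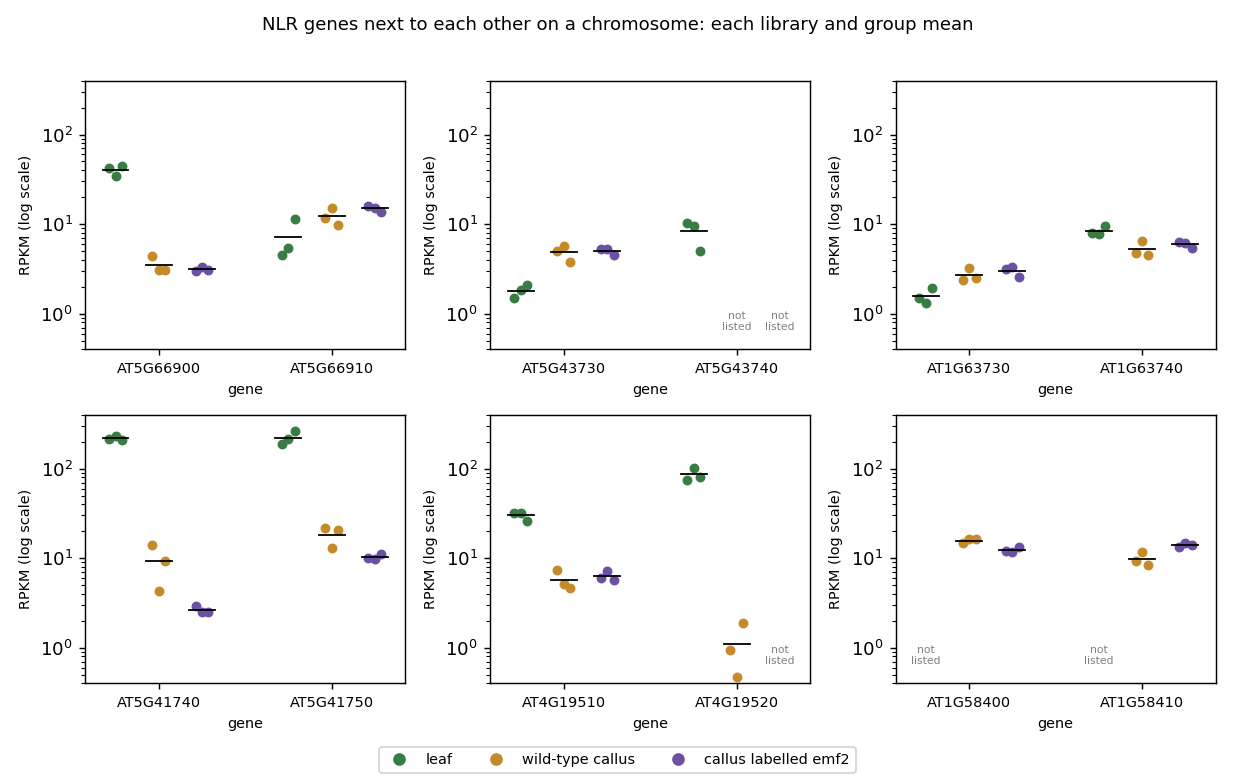
RPKM on a log scale in each library (points) and the group mean (lines) for 6 pairs of adjacent NLR genes. In the upper row the genes of a pair had opposite fold changes between leaf and wild-type callus, and in the lower row the same direction.

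The second comparison asks what the emf2 mutation changes in callus. None of the 59 NLR genes listed in both calli passed (limma). An unadjusted p under 0.05 was found for 11 of the 59, against 1457 of all 16185 genes listed in both. Over all 16185 genes listed in both, 0.068% were higher and 0.0309% were lower, so few genes of any kind passed, and the median log2 fold change was 0.05 for NLR genes and 0.00 for all. The libraries of the calli did not overlap for 11 of the 59, 6 lower and 5 higher, against 8.89% and 9.69% of all genes. A p above the threshold does not show that the levels are alike.

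The largest difference was that of AT5G41740, with 13.9, 4.31 and 9.43 RPKM in wild-type callus and 2.94, 2.48 and 2.48 in callus labelled emf2 (−1.37 ± 0.32, limma adjusted p = 0.21). The groups do not overlap, and wild-type callus replicate 2 is the lowest of its group. AT5G58120 had 4.13, 1.72 and 4.50 against 1.55, 1.37 and 1.39 RPKM (−0.80 ± 0.27, limma adjusted p = 0.40), and AT1G63750 had 8.95, 6.80 and 11.1 against 4.74, 3.70 and 4.94 (−0.85 ± 0.17, limma adjusted p = 0.14). Without wild-type callus replicate 2 these 3 genes passed (limma adjusted p = 0.013, 0.042 and 0.043), all lower in callus labelled emf2. Over all genes that fit called 51 higher and 70 lower, against 11 and 5 with every library.

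Genes that are high in leaf varied among the wild-type callus libraries. The 20 NLR genes in all tables that were at least 4-fold lower in wild-type callus than in leaf, on the log2(RPKM + 1) scale, had medians of 5.5, 2.96 and 4.44 RPKM in the wild-type callus libraries and 2.95, 3.52 and 2.99 in those labelled emf2. Wild-type callus replicate 2 was lowest of its group for 12 of the 20 and replicate 1 highest for 10. Of the 4 leaf markers, LHCB1.1 (24.2, 0.628 and 6.76 RPKM) and RCA (14.2, 3.83 and 5.28), followed the same order. RBCS1A, a Rubisco subunit gene, was lowest in replicate 2 but highest in replicate 3 (0.646, 0.0485 and 3.19), and CA1 was listed for leaf only. The part of leaf-like RNA in these values was not tested.

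**Figure D4:**
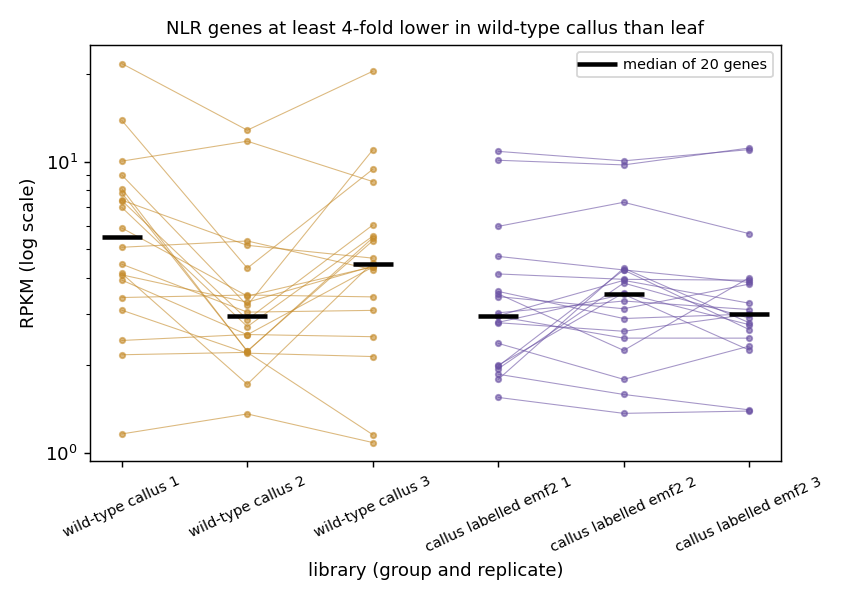
RPKM on a log scale of the 20 NLR genes at least 4-fold lower in wild-type callus than in leaf, in the 6 callus libraries. Thin lines join the values of a gene within a group, with no order among replicates, and bars mark the medians. Wild-type callus replicate 2 has a median of 2.96 RPKM, near the 2.95 to 3.52 of the callus labelled emf2.

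AT5G46260 (TIR) was listed for callus labelled emf2, with 2.67, 2.49 and 2.51 RPKM, and not for wild-type callus. It lay above the bound (0.83 ± 0.10, limma adjusted p = 0.0034), against 19.5% of the 461 such genes, and leaf had 13.2, 14.5 and 10.7 RPKM. AT5G46490 had 1.16, 0.840 and 1.05 RPKM in callus labelled emf2 and did not pass. AT4G19520, listed for wild-type callus and not for callus labelled emf2, did not pass either, among 518 such genes of which 4.63% did.

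Against leaf, callus labelled emf2 gave 36 lower and 5 higher of 52 NLR genes listed in both (limma), where 31.2% of all genes were lower and 34.1% higher, with a median log2 fold change of −1.55 against 0.08 for all. This comparison shares its leaf libraries with the first. AT5G58120 fell by 6.19 ± 0.27 (limma adjusted p = 6.9e-07) and AT5G41740 by 5.92 ± 0.32 (limma adjusted p = 2.0e-06). AT1G72840 rose by 1.63 ± 0.27 (limma adjusted p = 0.00088). AT5G45220, listed for callus only, had 9.79, 10.0 and 8.68 RPKM, above its 4.17, 7.53 and 5.19 in wild-type callus, a difference that did not pass (limma adjusted p = 0.38). Of 23 genes listed for leaf only 22 lay above the bound, against 84.6% of all such genes, and all 9 listed for callus labelled emf2 only did, against 75.6%.

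Immune receptor genes that carry names of their own, outside the 84, are given for comparison. Of 27 in a table, 21 were listed for leaf and wild-type callus, and 18 of these fell and none rose (limma), where 31.8% of all genes fell and 33.6% rose, with a median log2 fold change of −1.65. None was listed for wild-type callus and not for leaf. ZAR1, a CC receptor that forms a pore-like resistosome, had 513, 596 and 375 RPKM in leaf and 23.1, 25.7 and 28.8 in wild-type callus (−4.18, limma adjusted p = 9.1e-07). SNC1, a TIR receptor whose gain of function causes autoimmunity, had 86.0, 91.8 and 99.4 against 4.81, 2.84 and 3.44. The helper ADR1-L2 fell less, from 95.2, 91.0 and 75.4 to 50.1, 36.9 and 45.8 RPKM (−0.97, limma adjusted p = 0.00082). The 6 listed for leaf only, among them RPP8, RLM3 and WRR4A, all lay above the bound.

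Of 14 genes for partners of NLR proteins, 9 fell and 2 rose in wild-type callus (limma), against 31.8% and 33.6% of all genes, with a median of −1.04. NDR1, which many CC receptors need, fell from 118, 107 and 123 RPKM to 2.80, 4.05 and 1.14 (−5.08). EDS1, the hub that TIR receptors signal through, fell from 60.1, 66.6 and 70.0 to 15.6, 22 and 16.8 (−1.81), and its partner PAD4 by 1.69. The chaperone gene SGT1A had 54.1, 186 and 41.7 in leaf, highest in the library with high HSP101, and 7.94, 6.33 and 7.06 in callus (−3.24). RAR1 rose by 0.42 and RKS1, a pseudokinase that works with ZAR1, by 0.59. With equal library totals 4 of the 14 fell, where 2497 of all 14780 genes fell.

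Of 7 listed genes for other regulators of NLR immunity 2 rose, TPR1 (9.99, 9.61 and 10.4 to 16.7, 18.2 and 20.04 RPKM) and AT5G43560. SRFR1 and AT1G14200, 2 of the 7, fell. These shares are near those of all genes (33.6% higher and 31.8% lower). Of 6 genes of the small RNA pathways that cut NLR transcripts, 4 rose and none fell, where 33.6% of all genes rose. SGS3, which stabilises the cut RNA for copying, rose from 4.80, 4.58 and 7.22 to 18.8, 15.3 and 20.5 RPKM (1.57, limma adjusted p = 0.00011). DCL2, AGO1 and RDR6 rose by 0.87, 0.70 and 0.56.

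Of 12 surface immune receptors and their partners listed in both, 7 fell and none rose, where 31.8% of all genes fell. SOBIR1, a co-receptor of receptor-like proteins, fell by 4.27, from 638, 843 and 857 to 39.1, 34.2 and 44.3 RPKM. BAK1, a shared co-receptor, had 23.8, 22.6 and 29.3 against 26.9, 23.8 and 29.1 RPKM and did not pass. Of 8 salicylic acid genes 5 fell and 1, the transporter gene EDS5, rose, against the same 31.8% lower and 33.6% higher of all genes, and PR2 and PR5 were listed for leaf only; their leaf values ran from 50.7 to 1288 and from 46.9 to 680.5 RPKM. None of these lists had a gene that passed between the calli.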

How the data were processed

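Per the labels' protocols, polyA-selected RNA was made into TruSeq RNA V2 libraries, a kit that does not mark strand. The submitters' processing notes name TAIR 10, FastQC, cutadapt and TopHat without versions; the read counter is not given in the sources used here. Values are RPKM, deposited by the authors in 1 table per group of genes with a mean above 1 RPKM, per the file headers. Whole reads were recovered from the value steps of all 18861 listed genes, the 84 NLR genes among them (tolerance 0.0001 reads). They were used for depth and for equal-total scaling, and a library's total covers only the genes listed for its group. The length multiple of a gene in 1 table rests on its annotated span. Bringing the libraries to equal totals multiplied leaf values by 0.637, wild-type callus by 1.24 and emf2 callus by 1.27 (means on the log scale).

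Values were fitted as log2(RPKM + 1) with limma 3.58.1 in R 4.3.3, all 9 libraries in 1 fit with a trend, Benjamini-Hochberg within a contrast over all genes listed in both groups; the scale understates changes of low genes. The test against 1 RPKM treats the bound as exact, is adjusted separately, and a gene listed for 1 group had to lie above the threshold there. p-values measure the spread among the replicates given. The fit was tested on simulated data. Copies were found with blastn 2.17.0. Named genes were the members with known roles, the 8 largest rises and falls of at least 2-fold with a mean of at least 2 RPKM, and the 4 highest listed for 1 group. Other members are named where a pair, a spread or a lost call is described. The members and gene lists were chosen with earlier results of these data known.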

Additional observations from a re-analysis of the deposited data

How the results depend on the processing

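Directions of the NLR medians against leaf held under every alternative run. With library-total scaling 10 NLR genes were higher in wild-type callus and 11 in callus labelled emf2 against leaf, with medians of −0.51 and −0.65, because that scaling moves all genes: their medians rose to 0.86 and 0.91, and 78.7% and 79.6% of called genes were then higher, against 51.4% and 52.2%. The NLR medians were −1.63 and −1.78 with a mean of at least 2 RPKM, −1.60 and −1.69 with a pseudocount of 0.1, and −1.29 for callus labelled emf2 with quantile normalization (57.9% and 58.9% of called genes higher). Asking for at least 2-fold left 2 and 3 higher, against 2207 of all 14780 and 2171 of all 14693 genes. VICTR (AT5G46520) turned to 0.10 in callus labelled emf2 against leaf with library-total scaling. With a bound of 0.5 RPKM, 2 genes passed between the calli, AT5G46490 being the addition. Other causes were not tested.

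Leaving out each of the 9 libraries in turn (those outside a comparison, which share its fit, were added after seeing the data) gave 2 to 5 higher, 32 to 36 lower and medians of −1.42 to −1.16 in wild-type callus against leaf; rises numbered 2 without wild-type callus replicate 2 or leaf replicate 2. In callus labelled emf2 against leaf it gave 5 to 6 higher and 32 to 37 lower. Between the calli it gave 0 to 3 lower, 3 without wild-type callus replicate 2, and 0 higher. Replicate numbers gave no regular pairing: same-numbered correlations of deviations ran from −0.21 to 0.61, and different-numbered ones from −0.50 to 0.33. The value of 0.61 was that of replicate 3 in the calli, and whether those libraries share a batch was not tested. A replicate block called 38, 0 and 42 NLR genes, against 39, 0 and 41.

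Library-total and quantile scaling moved list counts and those of all genes. With library totals 9219 of all 14780 genes were higher and 2497 lower in wild-type callus, against 4969 and 4703 as deposited. In callus labelled emf2, 9435 of 14693 were higher and 2412 lower, against 5004 and 4591. With quantiles 5731 and 5857 were higher, and 4162 and 4094 lower. NLR partners lower went from 9 to 4 in wild-type callus and from 10 to 6 in callus labelled emf2 with library totals. Regulators of NLR immunity went from 2 higher to 5 and 6 with library totals and 4 in callus labelled emf2 with quantiles. They went from 2 lower to 0 with library totals in both and to 1 and 0 with quantiles. Surface receptors went from 0 higher to 3 and 2 with quantiles and 4 in both with library totals. Salicylic acid genes lower went from 5 to 3 with quantiles and 2 with library totals in wild-type callus, and from 4 to 2 in callus labelled emf2. Among the named genes 971 alternative values kept direction and call, 10 lost the call (9 of them AT5G66910), 1 gained it and 1 turned. With 1 gene of each near-identical pair, also added after seeing the data, the median in callus labelled emf2 against leaf was −1.24. Of 50 NLR genes 34 were then lower and 5 higher.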
